A study of Mus musculus with 12 samples.

Results

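In RNA-Seq of the mouse abdominal aorta, 10 genes of the neutrophil, called the members, were followed. They were chosen by symbol from the 55092 features of the table and fall into 2 sets of 5. The immature set holds granule genes transcribed while neutrophils form, Mpo and Elane of the primary granule and Ngp, Camp and Ltf of the secondary granule. The mature set holds S100a8, S100a9, Retnlg, Padi4 and Stfa2l1. Each of the 10 symbols matched 1 row of the table.

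Abdominal aortas came from 12 male mice in 4 groups of 3, and each mouse gave 1 poly(A)-selected library read in pairs. CFS and CFA were CCN2fl/fl mice, which carry floxed alleles of CCN2 and no Cre, infused with saline or with angiotensin II (Ang II). CSS and CSA were CCN2SMCΔ mice, CCN2fl/fl mice with a Myh11-Cre-ERT2 transgene that acts in smooth muscle cells (SMCs), infused with saline or Ang II. Both genotypes, the Cre-negative controls included, had received 5 doses of tamoxifen at 8 weeks of age and a washout of 2 weeks. Ang II was given by osmotic minipump at 500 ng/kg/min, and tissue was taken on day 7. With this infusion the paper reports infrarenal aneurysms in nearly all CCN2SMCΔ mice and mild aneurysms in few CCN2fl/fl mice. The labels do not say which sequenced mice had one, and the part of the lesion in the CSA values was not tested. Cre acts only where Myh11 is active, so CCN2 in other cells of the wall remained, and no group had the transgene without the floxed alleles. Mice are named by the numbers of their labels. The questions were whether the neutrophil genes differ with genotype under Ang II and under saline, and whether immature granule genes move with mature ones.

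Neutrophils are made in the bone marrow, where promyelocytes fill primary granules with myeloperoxidase and serine proteases and later precursors fill secondary granules with lactoferrin and antimicrobial peptides. Transcription of most granule genes is shut off before the cell enters the blood. Mature neutrophils hold large amounts of calprotectin, the heterodimer of S100A8 and S100A9, which binds zinc, manganese and calcium and signals through Toll-like receptor 4 when released. In aneurysmal aortas neutrophils are known as a source of proteases and of extracellular chromatin traps.

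Control regions of the members are shown first, because the members move together below and because C/EBP factors and PU.1 are textbook regulators of granule genes. Promoter windows were found in RefSeq (GRCm38.p6) for 10 of 10 members, and the 250 bases before the RefSeq start were searched on both strands. The 5 sequences printed are those bases that also precede the GENCODE start, from S100a8 and S100a9 of the mature set and from Ngp, Ltf and Elane of the immature set. Capitals mark GCAAT, an arm of the palindrome bound by C/EBP factors, and GAGGAAGT, a form of the PU.1 site, each on either strand (reading ATTGC and ACTTCCTC on the other).
S100a8 (chr3:90668821-90668977, plus strand): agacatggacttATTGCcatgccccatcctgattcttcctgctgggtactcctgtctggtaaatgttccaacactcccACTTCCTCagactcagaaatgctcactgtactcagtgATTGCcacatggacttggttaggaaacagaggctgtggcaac
S100a9 (chr3:90695722-90695971, minus strand): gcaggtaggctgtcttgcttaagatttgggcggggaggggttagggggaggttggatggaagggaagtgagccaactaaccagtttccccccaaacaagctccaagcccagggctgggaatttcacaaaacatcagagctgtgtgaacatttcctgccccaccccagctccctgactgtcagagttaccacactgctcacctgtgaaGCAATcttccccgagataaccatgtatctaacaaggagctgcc
Ngp (chr9:110419558-110419746, plus strand): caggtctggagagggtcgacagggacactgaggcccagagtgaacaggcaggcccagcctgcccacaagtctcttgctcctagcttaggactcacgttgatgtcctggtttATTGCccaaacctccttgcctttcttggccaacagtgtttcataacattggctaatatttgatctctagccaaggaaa
Ltf (chr9:111019042-111019270, plus strand): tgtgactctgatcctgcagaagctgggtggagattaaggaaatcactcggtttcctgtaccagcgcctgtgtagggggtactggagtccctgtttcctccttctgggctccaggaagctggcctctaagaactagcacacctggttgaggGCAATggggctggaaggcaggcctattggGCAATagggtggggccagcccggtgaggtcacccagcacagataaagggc
Elane (chr10:79886062-79886246, plus strand): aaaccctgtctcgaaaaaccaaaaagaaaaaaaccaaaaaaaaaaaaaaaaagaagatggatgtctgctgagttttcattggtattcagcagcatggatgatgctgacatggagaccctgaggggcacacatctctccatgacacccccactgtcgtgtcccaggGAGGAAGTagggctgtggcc

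GCAAT stood in the 250 bases of 9 of the 10 members, Padi4 being the exception, and in 23.1% of all 32851 promoters in the same window. In S100a9 it began 43 bases before the start, in Mpo 56, in Elane 57 and in Retnlg 62, so that the Elane match lies outside the stretch printed. The other matches were spread over the window, at 71 and 100 in Ltf, 137 in Camp, 139 in Ngp, 135 and 238 in S100a8 and 232 in Stfa2l1. GAGGAAGT stood in S100a8, Mpo and Elane, and in 2.4% of all promoters. The longer TTGCNCAA stood in Ngp and Ltf (2.6% of promoters), and TATAAA stood in S100a8 and Padi4 (12.4%). In all, 17 strings were searched, several of them overlapping, and the choice of those named followed a look at the matches. The others were TTGCNNAA (4 members, 9.6% of promoters), TTGCAA (0, 5.3%), TTGCGC (0, 5.3%), GAGGAA (5, 23.3%), GAGGAAG (3, 10.6%), GGAAGT (5, 19.7%), CACTTCC (3, 8.6%), AGGAAG (6, 29.5%), CAGGAA (7, 25.7%), AACCACA (0, 4.4%), TGAGTCA (1, 4.5%), TTCNNNGAA (0, 7%) and GGAANNTCC (0, 3.6%). A match describes the letters in the window and was not tested as a site.

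The authors deposited FPKM, fragments scaled to gene length and library depth, which allow levels to be compared between genes. Fragments recovered from these values numbered 14558577 to 23107803 per library, and a value of 0 allows up to 3 fragments. A gene was tested with limma on log2(FPKM + 0.1) when it reached 1 FPKM in at least 3 libraries, and was called at an adjusted p under 0.05 with a log2 fold change over 1.5 in either direction. The pseudocount of 0.1 understates the change of genes with low FPKM. CSA mouse 03 stood apart in low values. It had 18883 features above 0 against 21192 to 24761 in the other 11 libraries, and 273 genes at 1 fragment against 1132 to 2437, while 355 of its genes had 6 fragments against 395 to 446. How this came about is not given in the sources used here, so what 1 fragment of this library stands for is less certain, and the fragment ratios and their intervals below carry that doubt. The changes of the tested members between CSA and CFA, between CSA and CSS and in the interaction are therefore also given without it. So are the fragment ratios of all members between CSA and CFA and the counts of the gene lists. The targeted gene, Ccn2, measured 564 to 1105 FPKM in CFA and 255 to 399 in CSA (log2 fold change -1.41, standard error 0.34, limma adjusted p = 0.00622), lower in each CSA mouse than in each CFA mouse and short of the fold limit. Under saline it measured 480 to 1108 FPKM in CFS and 436 to 640 in CSS, with overlap (log2 fold change -0.40, standard error 0.34, limma adjusted p = 1), so its loss was not detectable in the whole-tissue RNA of the CSS mice.

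Transcripts of the 10 members were low in CFS, CSS and CFA and higher in each CSA mouse, although Padi4 was not called against CFA. In CSA, S100a9 and S100a8 stood at 114 to 278 FPKM, Retnlg and Stfa2l1 at 9.40 to 87.4, and the granule genes between 0.362 and 12.3. Every CSA mouse lay above every CFA mouse for 10 of 10 members, an arrangement found in 23.4% of all tested genes. Of the members, 8 passed the filter and all 8 of these were upregulated in CSA against CFA, beside 8.95% of the 14676 tested genes. That count carries little weight for Stfa2l1, Ngp, Camp, Ltf and Elane, which reached 1 FPKM in the CSA libraries only and so had to differ to be tested. Retnlg, at 1 FPKM or more in 2 other libraries, also needed a CSA library to pass. Mpo and Padi4 did not pass the filter.

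**Figure D1:**
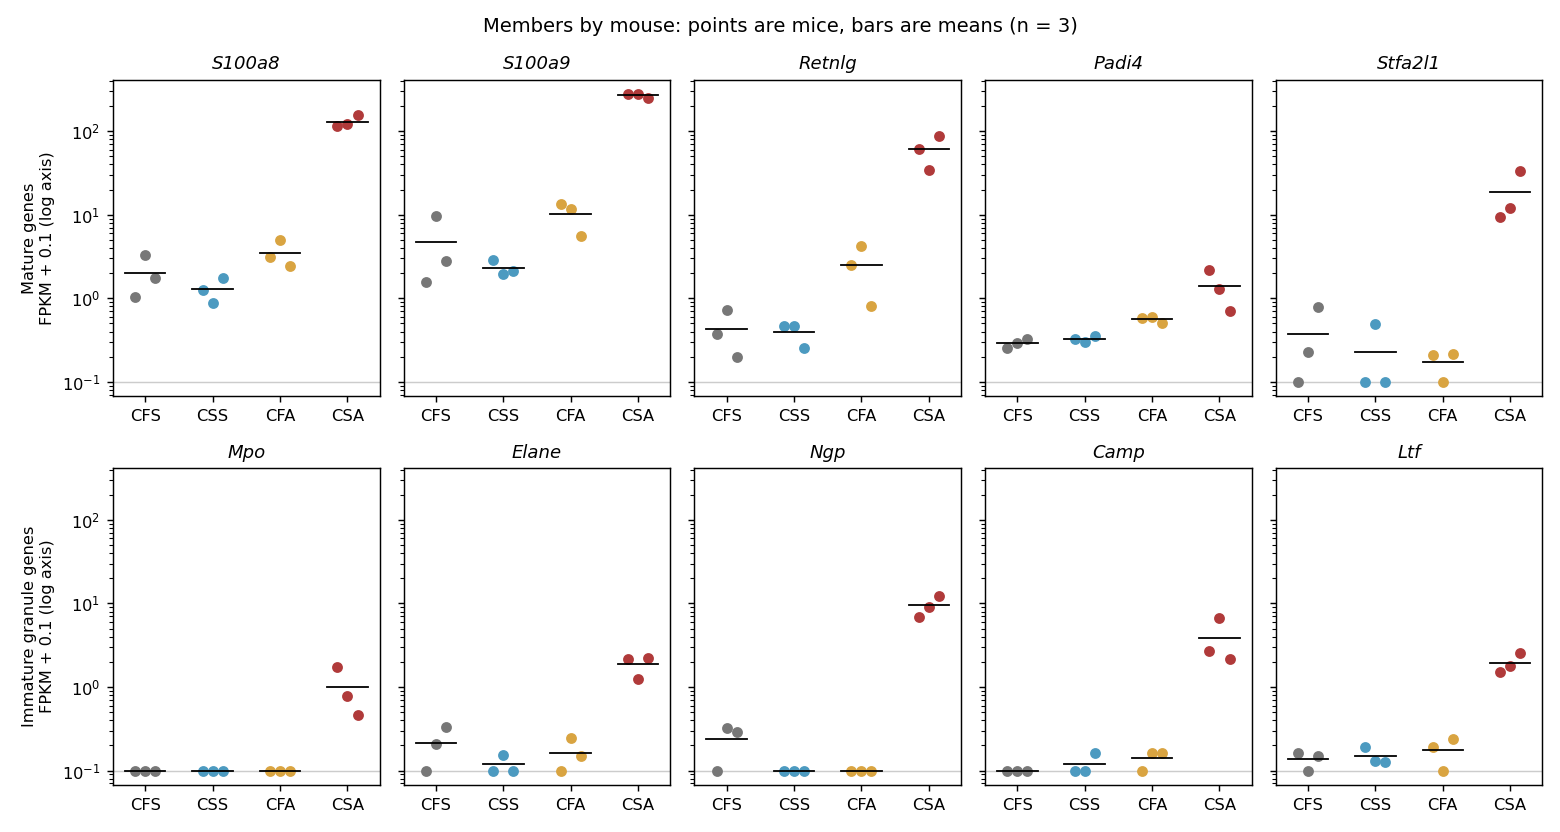
FPKM + 0.1 of each member (log axis) in every mouse of the 4 groups, with mature genes above and immature granule genes below; points are mice, bars are means of 3, and values of 0 sit at 0.1. The 3 CSA mice lie above the mice of the other groups for each member, with the smallest gap for Padi4, where CSA mouse 03 is at 0.607 FPKM and the highest CFA mouse at 0.497.

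Calprotectin genes came first by level. S100a8 (ENSMUSG00000056054) lies on chromosome 3 of GRCm38, 90668978 to 90670035 on the plus strand, and S100a9 (ENSMUSG00000056071) on the minus strand at 90692632 to 90695721, 22596 bases away. S100a8 measured 0.935, 3.16 and 1.67 FPKM in CFS (mice 68, 69 and 70, the order kept below) and 1.16, 0.777 and 1.66 in CSS (mice 54, 55 and 56). Under Ang II it measured 3.04, 4.89 and 2.31 FPKM in CFA (mice 71, 72 and 74) and 114, 120.2 and 156 in CSA (mice 01, 02 and 03). The saline groups overlapped each other and CFA overlapped CFS, while CSA stood clear of the rest. Mean FPKM went from 3.41 ± 1.33 for CFA to 130.3 ± 22.7 for CSA (SD, n = 3 each). CSA exceeded CFA by 5.27 on the log2 scale (standard error 0.41, limma adjusted p = 4.62e-06).

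S100a9, whose protein completes the heterodimer, measured 1.45, 9.63 and 2.67 FPKM in CFS and 2.78, 1.86 and 2.02 in CSS. With Ang II the values were 13.2, 11.7 and 5.42 FPKM in CFA and 278, 276 and 251 in CSA. The 3 CSA mice lay within 1.10-fold of each other, the narrowest spread among the members in CSA. CSA exceeded CFA by 4.81 on the log2 scale (standard error 0.55, limma adjusted p = 5.58e-05). CFS mouse 69 was the highest of the saline mice in S100a9 and in S100a8. It also held the most hemoglobin transcript of the CFS mice, with Hbb-bs at 621 FPKM against 69.8 and 76.9, and the part of blood in its value was not tested.

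The ratio of S100a9 to S100a8 FPKM was 2.42, 2.29 and 1.61 in the CSA mice. It ranged from 1.55 to 3.05 in CFS, from 1.22 to 2.39 in CSS and from 2.35 to 4.34 in CFA, so CSA overlapped each of the other groups. Calprotectin genes made up 74.3% to 85.6% of the summed FPKM of the 10 members in CSA and 77.5% to 84.0% in CFA, with overlap of the ranges.

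Retnlg (ENSMUSG00000022651, chromosome 16, 48872621 to 48874496, plus strand) encodes a resistin-like secreted protein of mouse neutrophils. It measured 0.274, 0.631 and 0.0978 FPKM in CFS and 0.363, 0.364 and 0.155 in CSS. With Ang II it reached 2.40, 4.13 and 0.716 FPKM in CFA and 60.8, 34.5 and 87.4 in CSA. CSA lay above CFA and CFA above CFS without overlap. CSA exceeded CFA by 4.79 on the log2 scale (standard error 0.63, limma adjusted p = 1.40e-04). Retnlg needed a CSA library to be tested, and a fit without the filter on low values gave limma adjusted p = 2.91e-04.

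Stfa2l1 (ENSMUSG00000059657, chromosome 16, 36156811 to 36161953, plus strand) belongs to the stefin A cluster of cysteine protease inhibitors, whose near-identical copies make its fragments uncertain. It measured 0, 0.128 and 0.692 FPKM in CFS, 0, 0.386 and 0 in CSS, 0.110, 0 and 0.113 in CFA and 9.40, 12.04 and 33.6 in CSA. CSA mouse 03 was the highest of them, and the 3 CSA values spanned 3.58-fold. The log2 fold change between CSA and CFA was 6.58 (standard error 0.86, limma adjusted p = 1.36e-04), and it rests on 2 fragments in CFA against 403 in CSA. Stfa2l1 was tested only through its CSA libraries, and the fit without the filter gave limma adjusted p = 2.43e-04.

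Padi4 (ENSMUSG00000025330, chromosome 4, 140745865 to 140774236, minus strand) encodes the peptidylarginine deiminase that citrullinates histones when chromatin traps are cast. It was listed at 0.157, 0.188 and 0.228 FPKM in CFS, 0.223, 0.201 and 0.257 in CSS, 0.484, 0.497 and 0.400 in CFA and 2.08, 1.20 and 0.607 in CSA. Without overlap, CSA lay above CFA and CFA above CFS, and each of these gave p = 0.1 in a two-sided exact permutation test, the smallest that 3 against 3 mice allow. In a fit without the filter on low values its log2 fold change between CSA and CFA was 1.17 (standard error 0.38, limma adjusted p = 0.0507), under the fold limit and the smallest change among the members. CSA mouse 03, the library that stood apart, was the lowest of its group at 0.607 FPKM and pulled this change down. A fitted change without it is not given, so a place under the fold limit is certain only with mouse 03 included. By recovered fragments the CSA rate was 2.94 times that of CFA (95% interval 2.42 to 3.59, 372 against 143 fragments). This interval and those below are exact intervals of the counting error and do not cover the spread between mice.

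Of the primary granule genes, Mpo (ENSMUSG00000009350, chromosome 11, 87793581 to 87804413, plus strand) had the lowest mean FPKM in CSA among the members. It encodes myeloperoxidase, and part of its exonic sequence is shared with the annotated gene Gm11505. It was listed at 0 in 9 of 9 mice outside CSA and at 1.64, 0.688 and 0.362 FPKM in the CSA mice, which is 183 fragments in all. Against a floor of 3 fragments per library it was at least 21.9-fold higher in CSA than in CFA, and at least 12.8-fold without CSA mouse 01. The exact permutation test gave p = 0.1, the smallest possible, and the fit without the filter called it upregulated (limma adjusted p = 3.29e-04).

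Elane (ENSMUSG00000020125, chromosome 10, 79886247 to 79888215, plus strand) encodes neutrophil elastase, which degrades elastin. It measured 0, 0.109 and 0.236 FPKM in CFS, 0, 0.0548 and 0 in CSS, 0, 0.144 and 0.0479 in CFA and 2.05, 1.15 and 2.12 in CSA. The control groups overlapped and held 1 to 6 fragments per group, against 97 in CSA. CSA exceeded CFA by 3.57 on the log2 scale (standard error 0.63, limma adjusted p = 9.32e-04), and by fragments 27.4-fold (95% interval 10.4 to 103). Elane was tested only through its CSA libraries, and the fit without the filter gave limma adjusted p = 4.80e-04.

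Of the secondary granule genes, Ngp (ENSMUSG00000032484, chromosome 9, 110419747 to 110423012, plus strand), neutrophilic granule protein of the cystatin and cathelicidin kind, reached the highest level. It was listed at 0, 0.219 and 0.190 FPKM in CFS, at 0 in each CSS and CFA mouse, and at 6.85, 8.91 and 12.3 in CSA. No other member of the immature set reached its lowest CSA value. Against the floor of 3 fragments per library it was at least 81.5-fold higher in CSA than in CFA. The fitted log2 fold change of 6.52 (standard error 0.52, limma adjusted p = 5.30e-06) depends on the pseudocount, because CFA was at 0. Ngp was tested only through its CSA libraries, and the fit without the filter gave limma adjusted p = 4.14e-06.

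Camp (ENSMUSG00000038357, chromosome 9, 109847379 to 109849617, minus strand) encodes the cathelicidin antimicrobial peptide. It was listed at 0 in each CFS mouse, at 0, 0 and 0.0606 FPKM in CSS, and at 0.0622 in 2 CFA mice and 0 in the other. In CSA it measured 2.60, 6.53 and 2.07 FPKM, with mouse 02 standing above the others. By fragments CSA was 95.4-fold above CFA (95% interval 26.0 to 795, 169 against 2 fragments), and the fitted log2 fold change was 4.62 (standard error 0.58, limma adjusted p = 1.02e-04). Camp was tested only through its CSA libraries, and the fit without the filter gave limma adjusted p = 3.67e-05.

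Ltf (ENSMUSG00000032496, chromosome 9, 111019271 to 111042767, plus strand) encodes lactoferrin, the iron-binding protein of the secondary granule. It was at most 0.137 FPKM in the 9 mice outside CSA and measured 1.43, 1.67 and 2.44 FPKM in CSA. The groups outside CSA overlapped each other, and CSA exceeded CFA by 3.52 on the log2 scale (standard error 0.55, limma adjusted p = 4.30e-04). By fragments the ratio was 23.3 (95% interval 14.4 to 40.5, 351 against 17 fragments). Ltf was tested only through its CSA libraries, and the fit without the filter gave limma adjusted p = 1.26e-04.

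In CSA the mean FPKM fell in the order S100a9, S100a8, Retnlg, Stfa2l1, Ngp, Camp, Ltf, Elane, Padi4 and Mpo. The first 3 of these steps separated genes whose CSA ranges did not overlap, as did the step from Ngp to Camp. The ranges of Stfa2l1 and Ngp overlapped, and so did each pair of neighbours from Camp down to Mpo. The CSA mice did not keep one order across members. Mouse 03 was the highest in S100a8, Retnlg, Stfa2l1, Ngp, Ltf and Elane and the lowest in S100a9, Camp, Mpo and Padi4.

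Leaving out CSA mouse 03 and keeping the tested set, the 8 tested members remained upregulated against CFA, with log2 fold changes from 3.31 for Ltf to 6.31 for Ngp. S100a8 then stood at 5.13 (limma adjusted p = 2.10e-05, with a range of 4.14e-07 to 4.53e-04 over its 19 alternatives) and Elane at 3.42 (limma adjusted p = 0.00317, range 7.37e-05 to 0.0048). When the filter was applied again without any 1 CSA mouse, S100a8, S100a9 and Retnlg were left to test and 3 members were called. The labels do not link mice to litters or batches, and p-values measure the spread between these mice.

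**Figure D2:**
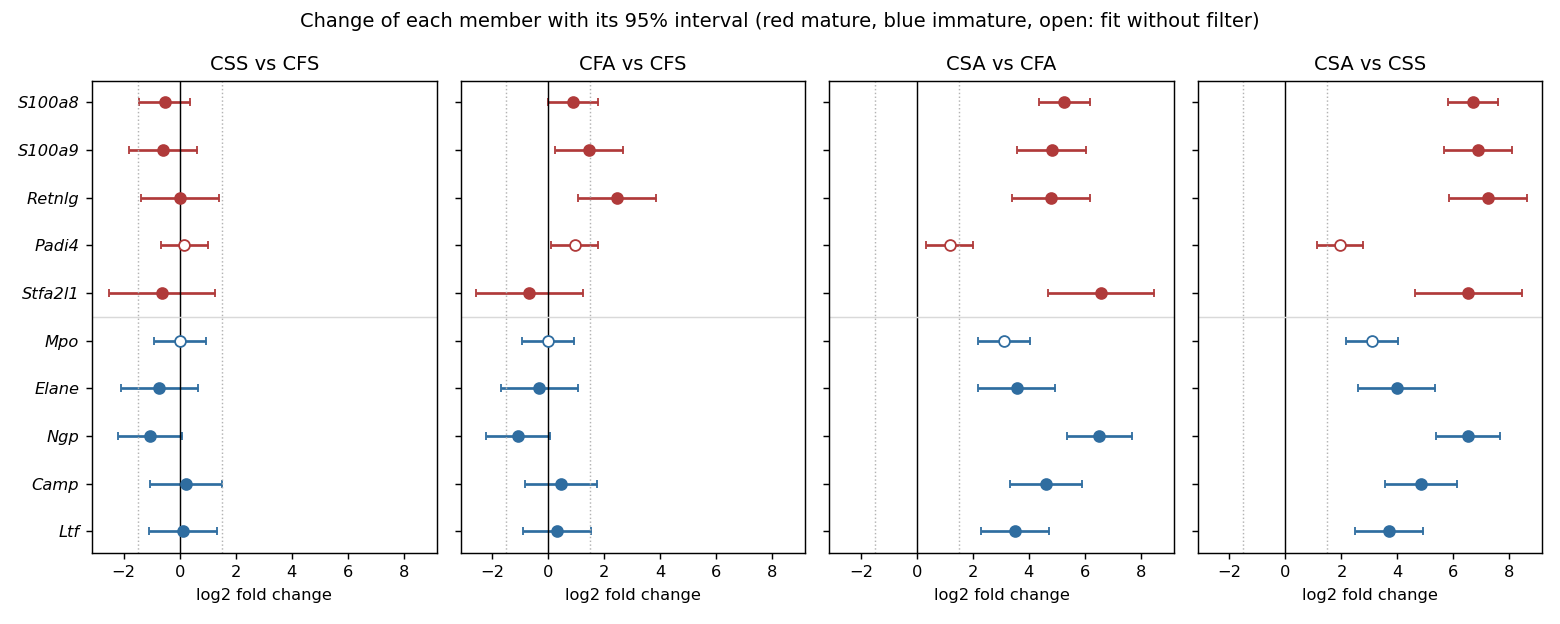
Log2 fold change of each member in 4 comparisons, with 95% intervals from limma; red marks mature genes, blue immature granule genes, open circles the 2 members fitted without the filter, and dotted lines a change of 1.5. The 8 filled points lie beyond 1.5 in both comparisons that involve CSA, and Padi4, at 1.17, does not in CSA against CFA.

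Between the saline groups, in which Ccn2 itself overlapped, no member was called. Between CSS and CFS, 0 of 8 tested members were called by limma, 0 had an unadjusted p under 0.05, and every CSS mouse was above every CFS mouse for 0 of 10, beside 11.1% of tested genes. The background was 0.00681% of tested genes called higher and 6.3% with an unadjusted p under 0.05. S100a8 differed by -0.54 on the log2 scale with a 95% interval of 0.90 on either side, S100a9 by -0.60 with 1.22, and Retnlg by 0.01 with 1.39. For the immature set the depth set the limit, since Mpo, Camp, Elane and Ngp had 0 to 9 fragments in each of the saline groups and a difference was not detectable.

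Ang II alone left the immature set near 0. Between CFA and CFS, 0 of 8 tested members were called by limma, beside 0.0204% of tested genes called higher and 9.42% with an unadjusted p under 0.05. Retnlg and S100a9 had an unadjusted p under 0.05. Retnlg differed by 2.44 on the log2 scale (standard error 0.63, unadjusted p = 0.00273, limma adjusted p = 0.188), and each CFA mouse lay above each CFS mouse. S100a9 differed by 1.46 (standard error 0.55, unadjusted p = 0.0234, limma adjusted p = 0.436), with overlap. Among the 10 members, the groups did not overlap for Retnlg and Padi4, which is 2 of 5 mature and 0 of 5 immature genes, beside 9.44% of tested genes.

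CFA mouse 74 was the lowest of its group in S100a8, S100a9, Retnlg and Padi4. Without it Retnlg rose by 3.10 on the log2 scale and was called (limma adjusted p = 0.0345, range 0.0345 to 0.559 over 19 alternatives). By recovered fragments the CFA rate was 7.09 times the CFS rate for Retnlg (95% interval 3.78 to 14.7, 92 against 11 fragments) and 2.42 times for Padi4 (95% interval 1.75 to 3.42). For Retnlg it was 12.8 times without CFS mouse 69, which held 7 of the 11 fragments, and 4.61 times without CFA mouse 72. The summed FPKM of 7 erythroid genes was 133.8 to 1248 in CFS and 767 to 2497 in CFA, with overlap, and their part in the result was not tested.

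In the CCN2SMCΔ mice, the 8 tested members were higher with Ang II than with saline. For the 5 tested only through the CSA libraries this was a condition of being tested, and Retnlg also needed a CSA library to pass. CSA exceeded CSS by 6.69 on the log2 scale for S100a8, 6.87 for S100a9, 7.23 for Retnlg, 6.54 for Stfa2l1, 6.52 for Ngp, 4.85 for Camp, 3.69 for Ltf and 3.97 for Elane, with limma adjusted p from 7.56e-07 to 3.69e-04 and 10.9% of tested genes called higher. Without CSA mouse 03 the change ran from 3.48 for Ltf to 6.92 for Retnlg, and the highest limma adjusted p was 0.00139, for Elane. Each CSA mouse was above each CSS mouse for 10 of 10 members, beside 26.3% of tested genes. Padi4 differed by 1.95 (limma adjusted p = 0.00284) and Mpo by 3.10 (limma adjusted p = 2.53e-04) in the fit without the filter. CSA serves in both comparisons, so they are not independent. The genotype effect under Ang II exceeded that under saline for 8 of 8 tested members in the interaction term, beside 7.89% of tested genes. Here too 5 of the 8 reached the filter in the CSA libraries only, and Retnlg also needed a CSA library, so that being high in CSA was a condition of testing them. The term ran from 3.39 for Ltf (standard error 0.78, limma adjusted p = 0.00836) to 7.59 for Ngp (standard error 0.73, limma adjusted p = 6.44e-05). Ngp was at 0 in each CSS and CFA mouse, so its term depends on how values of 0 are treated, and over 18 alternatives it ran from 3.52 with a pseudocount of 1 to 11.2 with limma-voom. Without CSA mouse 03 the terms ran from 3.18 for Ltf (limma adjusted p = 0.0151) to 7.38 for Ngp (limma adjusted p = 1.49e-04).

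The immature and mature sets were then set side by side. Summed over 5 genes, immature FPKM was 14.6, 18.9 and 19.3 in the CSA mice and 0.0931, 0.206 and 0.247 in the CFA mice. Summed mature FPKM was 464, 444 and 529 in CSA and 19.2, 21.3 and 8.96 in CFA. Both sums were higher in each CSA mouse than in any mouse of the other groups.

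As a share of the summed FPKM of the 10 members, the immature set made up 3.04%, 4.10% and 3.51% in the CSA mice. It made up 0.482%, 0.959% and 2.68% in the CFA mice, 2.02% to 2.34% in CSS and 2.18% to 8.16% in CFS. The share in CSA was above that in CFA and CSS without overlap and within the range of CFS. The control shares rest on few fragments, with 22 immature fragments in all CFS mice together, 12 in CSS and 23 in CFA, against 1431 in CSA.

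**Figure D3:**
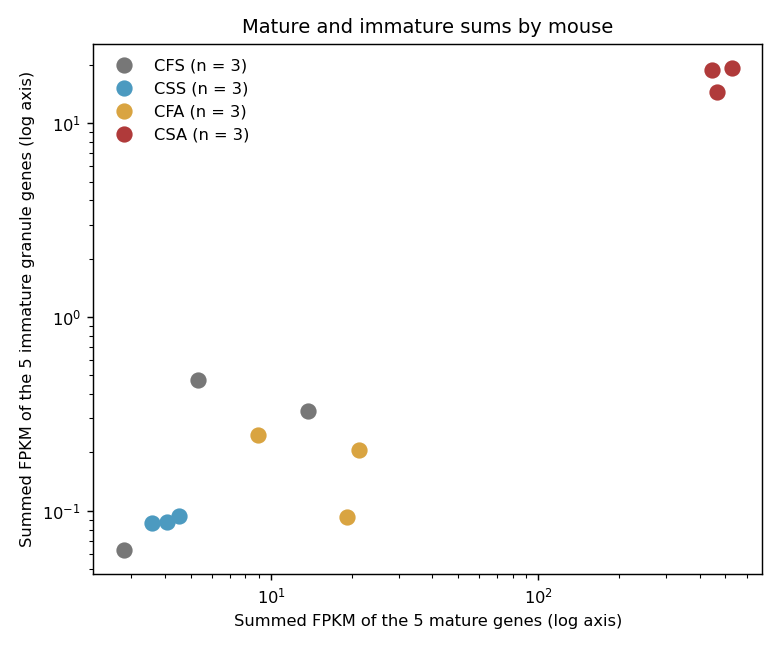
Summed FPKM of the 5 immature granule genes against the summed FPKM of the 5 mature genes, both on log axes, with 1 point per mouse. The CSA mice lie apart at 14.6 to 19.3 and 444 to 529 FPKM, and the CFA mice lie to the right of most saline mice at a like immature sum.

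Over the 10 members, the median log2 fold change between CSA and CFA was 4.81 for the mature set and 3.57 for the immature set, a difference of 1.25, beside a median of -0.04 over all tested genes. The size of that difference depended on how values near 0 were treated. It was 0.64 without CFA mouse 74 and up to 1.43 with another mouse left out, 2.83 with a pseudocount of 1, and 0.36 when Mpo and Ngp, at 0 in CFA, were set at their bounds. By fragments, the mature ratios ran from 2.94 for Padi4 through 24.1 for Retnlg, 26.6 for S100a9 and 37.5 for S100a8 to 228 for Stfa2l1 (95% interval 62.6 to 1886). The immature ratios were at least 21.9 for Mpo, 23.3 for Ltf, 27.4 for Elane, at least 81.5 for Ngp and 95.4 for Camp, so the sets interleaved. Without CSA mouse 03 the mature ratios were 3.54, 19.6, 27.3, 34.4 and 145 in the same order, and the immature ones at least 28.4 for Mpo, 20.2 for Ltf, 25.1 for Elane, at least 68.7 for Ngp and 112 for Camp. Single libraries moved some of these ratios by over 1.5 times. Without CSA mouse 02 Camp stood at 57.7, without CFA mouse 71 Camp at 63.1 and Elane at 18.1, without CFA mouse 72 Elane at 73.4 and Retnlg at 37.1, and without CFA mouse 74 Ltf at 37.9. Against CSS the medians were 6.69 and 3.97, a difference of 2.72 (4.06 with a pseudocount of 1 and 2.37 with the bounds). Between CFA and CFS they were 0.95 and 0.

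Other granule genes were counted from lists of genes known for these roles. Many of these genes reached 1 FPKM in 3 libraries only with the CSA libraries counted, so that being high in CSA was a condition of testing them, and how many is given beside each count. Of 7 other primary granule and promyelocyte genes 4 were tested (2 of them, Clec12a and Prtn3, needed CSA to pass), 2 rose and 1 fell in CSA against CFA (median log2 fold change 2.72), where 8.27% of all tested genes were called lower. Clec12a, a lectin receptor of myeloid cells, rose by 4.41 on the log2 scale and Igsf6, another myeloid surface protein, by 3.47. Gstm1, a glutathione transferase that many tissues express, fell by 2.97. Prtn3, the gene of proteinase 3, was not called (log2 fold change 1.98, limma adjusted p = 0.0748), was called higher without CSA mouse 03 (2.41, limma adjusted p = 0.0487), and its CFS mice ranged from 0.370 to 3.65 FPKM. Ctsg, the gene of cathepsin G, was listed at 0 in 9 of 9 mice outside CSA and at 0.319 to 1.33 FPKM in CSA, and like Mpo it was not tested. Ms4a3 and Prss57 were not tested either. Ms4a3 was at 0 in each mouse outside CSA and at 0 to 0.314 FPKM in CSA. Prss57 was not raised, at 0 to 0.173 FPKM in CSA and 0.0161 to 0.116 in CFA, with overlap.

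Of 11 genes listed with the secondary granule 6 were tested, of which 4 needed CSA to pass, and 5 rose (median 2.93). The list also holds the receptor gene Ltb4r1, which is among the 5 that rose, and the surface marker gene Ly6g. Lcn2, which encodes the siderophore-binding lipocalin 2, rose by 5.03 on the log2 scale from 1.53 ± 1.38 to 43.9 ± 12.4 FPKM (SD, n = 3 each). Chil3, a chitinase-like protein that monocytes also make, rose by 3.46, and the leukotriene B4 receptor gene Ltb4r1 by 2.94. Ly6g, the defining surface marker of mouse neutrophils, was near its floor and was not tested. It was listed at 0.680, 0 and 0 FPKM in CSA and at 0.390, 0.10 and 0 in CFA, where 3 fragments correspond to 0.146 to 0.208 FPKM.

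Of 15 gelatinase granule and secretory vesicle genes, which are made late in neutrophil formation, 15 were tested, of which 6 needed CSA to pass, and 14 rose (median 3.20). The formyl peptide receptor gene Fpr2 rose by 4.81 on the log2 scale, the neutrophil collagenase gene Mmp8 by 4.61 and the metalloprotease gene Adam8 by 4.18. Of 25 other mature neutrophil genes 20 were tested, of which 12 needed CSA to pass, and 18 rose (median 4.11), led by the decoy interleukin-1 receptor gene Il1r2 with 6.02, Il1b with 5.60 and Acod1, the itaconate-forming enzyme, with 5.52. Cxcr2, the receptor that draws neutrophils into tissue, measured 19.4 to 30.3 FPKM in CSA against 0.301 to 1.41 in CFA. Monocytes and macrophages express many of these genes too.

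**Figure D4:**
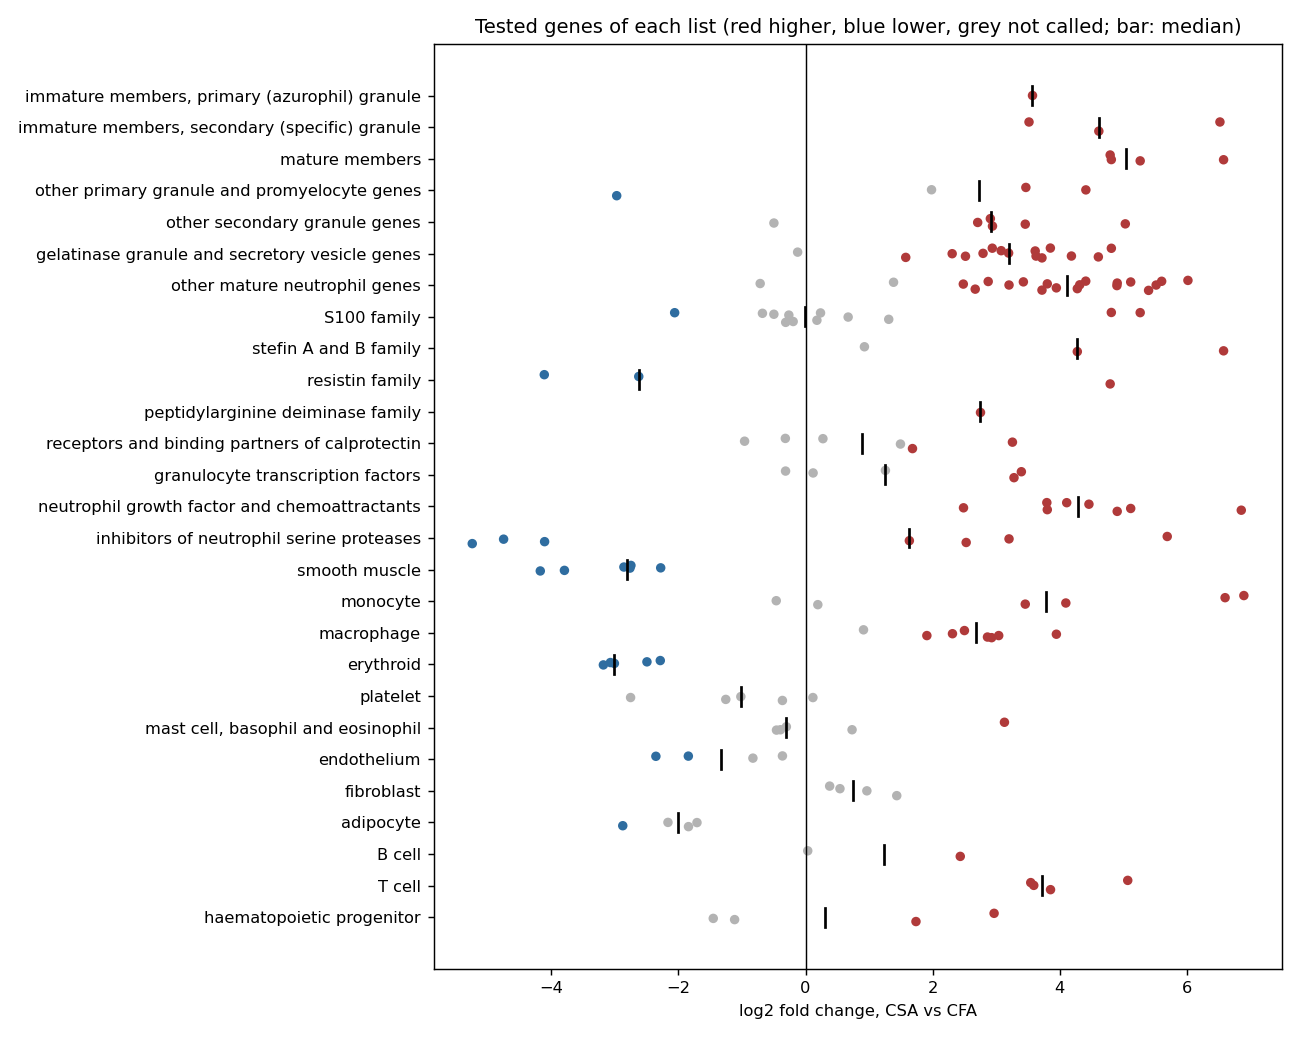
Log2 fold change between CSA and CFA of each tested gene, by list, with called genes in red (higher) or blue (lower), others in grey and the list median as a bar. Neutrophil lists sit mostly between 2 and 6, while the S100 family is centred near 0 and smooth muscle lies below 0. Lists of other leukocytes are raised too, with medians of 3.78 for monocyte, 3.72 for T cell and 2.68 for macrophage markers.

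The families of the members were counted next. Of 16 genes listed with the S100 family, the binding protein gene S100pbp included, 12 were tested, and the 2 called higher were S100a8 and S100a9. The list median was -0.01, and 0.08 without CSA mouse 03. S100a7a fell by 2.06 on the log2 scale, from 1.84 ± 0.370 to 0.371 ± 0.119 FPKM (SD, n = 3 each). S100a11 was not called (log2 fold change 1.31, limma adjusted p = 0.0336), and its CSA values of 562, 633 and 2296 FPKM were highest in mouse 03. Without mouse 03 its change was 0.66, and it passed the fold limit without CSA mouse 01 (1.68, limma adjusted p = 0.0128) or CSA mouse 02 (1.59, limma adjusted p = 0.0233). S100a10 was higher by 0.67 (limma adjusted p = 0.00579), under the fold limit. Its CSA values of 135 to 181 FPKM lay above the CFA values of 87.7 to 113. S100a1 differed by -0.68 (limma adjusted p = 0.00333), and S100a6, next to S100a11 in mean FPKM in CFA, by -0.20 (limma adjusted p = 0.605).

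**Figure D5:**
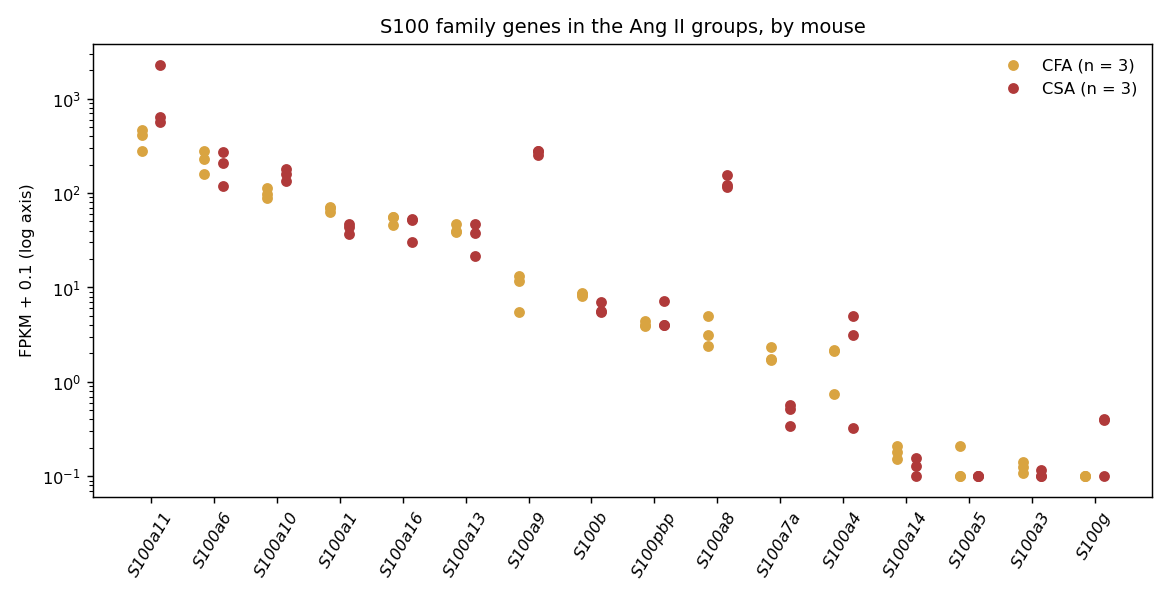
FPKM + 0.1 on a log axis of the genes listed with the S100 family in the CFA and CSA mice, ordered by their CFA mean, with 1 point per mouse. S100a8 and S100a9 stand at 2.31 to 13.2 FPKM in CFA and at 114 to 278 in CSA, and S100a7a is lower in CSA.

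Of the resistin family, Retnlg rose while Retnla, made by alternatively activated macrophages, fell by 4.11 and Retn, the adipocyte resistin, fell by 2.63 on the log2 scale. Retnlb was listed at 0 in 12 of 12 mice. Of 12 stefin genes 10 were in the table and 3 were tested, and Gm5483, a stefin A gene, rose by 4.28 beside Stfa2l1. Both were tested only because CSA was high. Cstb differed by 0.93, under the fold limit. Of 5 deiminase genes Padi2 was the only one tested, through its CSA libraries alone, and rose by 2.75, from 0.483 ± 0.267 to 3.63 ± 0.778 FPKM (SD, n = 3 each), above the level of Padi4 in CSA.

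Receptors that calprotectin can act on followed. Of 7 receptor and partner genes 6 were tested and 2 rose (median 0.88, and 0.57 without CSA mouse 03). Cd14, the co-receptor of TLR4, rose by 3.26 on the log2 scale from 8.85 ± 3.02 to 84.9 ± 23.9 FPKM (SD, n = 3 each), and the adaptor gene Myd88 rose by 1.68. Ly96, another TLR4 partner, measured 1.49, just under the fold limit (limma adjusted p = 0.0051), and passed it without CFA mouse 71 (1.64), CSA mouse 01 (1.68) or CSA mouse 02 (1.70). Tlr4 differed by 0.27 (limma adjusted p = 0.294).

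Of 8 granulocyte transcription factor genes 5 were tested and 2 rose, Runx1, which needed CSA to pass, by 3.40 and Spi1, which encodes PU.1, by 3.28 on the log2 scale. Cebpb, which encodes a C/EBP factor, differed by 1.26 (limma adjusted p = 0.0463), under the fold limit, and rose by 1.90 without CSA mouse 03 (limma adjusted p = 2.12e-04). Cebpe and Gfi1, the factors of granule formation, were not tested. Cebpe was at 0 to 2.10 FPKM in CSA and at 0.228 to 0.418 in CFA, with overlap. Gfi1 was at 0.184 to 0.757 FPKM in CSA and at 0.0444 to 0.173 in CFA, without overlap. Of 9 genes listed with neutrophil growth factor and chemoattractants, the receptor genes Csf3r, Cxcr2 and Cxcr4 included, 8 were tested and 8 rose (median 4.29). Of these, Cxcl5, Cxcr2, Cxcl2 and Cxcl3 needed CSA to pass, which leaves 4 of 4 for the others. The growth factor gene Csf3 was not tested, at 0.277 to 1.29 FPKM in CSA and 0 to 0.0334 in CFA. Cxcr2, Cxcl2 and Csf3r, the last of which did not need CSA to pass, are also counted among the other mature neutrophil genes. The chemokine gene Cxcl5 rose by 6.86, Cxcr2 by 5.12 and Cxcl2 by 4.90.

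Inhibitors of the neutrophil serine proteases moved both ways. Of 10 genes 7 were tested, 4 rose and 3 fell (median 1.63). Serpina3g rose by 5.69 on the log2 scale, while the alpha-1 antitrypsin genes Serpina1e and Serpina1d fell by 5.25 and 4.75, although near-identical copies make the division of fragments among these genes uncertain.

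Markers of other cells moved with the members, and their part in the result was not tested. In this bulk tissue, more cells of a type and more RNA per cell cannot be told apart. The summed FPKM of 6 monocyte markers was 26.4 to 62.6 in CFA and 219.7 to 309.8 in CSA, and 4 of the 6 rose, of which Ms4a4c, Ly6c2 and Chil3 needed CSA to pass, led by Ms4a4c with 6.90 and Ly6c2 with 6.60 on the log2 scale. Of 8 macrophage markers 7 rose (326 to 690 against 2268 to 2470 FPKM), and the summed FPKM of 4 T cell markers was 0.392 to 1.55 in CFA and 16.5 to 23.9 in CSA. Each of these 4 passed the filter only with CSA counted, so that being high in CSA was again a condition of their 4 calls. Without CSA mouse 03 the calls between CSA and CFA differed for 10 genes of all the lists, the 5 erythroid genes, Cebpb, Prtn3, Mki67, Lrg1 (then higher) and Wfdc21 (then not called). Monocytes also express S100a8 and S100a9, so these genes do not mark neutrophils alone.

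The 6 smooth muscle markers fell, from summed values of 5226 to 8122 FPKM in CFA to 780 to 916 in CSA, with Myh11 lower by 4.17 on the log2 scale. Erythroid markers also fell (767 to 2497 against 63.3 to 620.9 FPKM, 5 of 5 tested), so hemoglobin transcripts did not rise with the members in CSA. With 1 mouse left out the fall stayed between -4.15 and -2.37 on the log2 scale for Hbb-bs, -4.43 and -2.26 for Hbb-bt and -3.99 and -2.40 for Hba-a1, and the call was lost in 4, 8 and 3 of 12 such fits. All 3 lost it without CSA mouse 01, CSA mouse 03 or CFA mouse 71 (Hbb-bs limma adjusted p = 0.0807, 0.0877 and 0.104), and Hbb-bs and Hbb-bt also without CFA mouse 74. Hbb-bt further lost it without CFA mouse 72 or any CSS mouse. Among platelet markers 0 of 5 were called. Keratinocytes, which can make calprotectin, were represented by 6 markers summing to 0 to 0.650 FPKM in CSA, with Krt5 and Krt14 at 0 in 12 of 12 mice. Of 4 progenitor markers, Flt3, tested through CSA alone, rose by 2.97 and Mki67 by 1.74 (limma adjusted p = 0.0499, lost in 11 of the 12 fits without 1 mouse), while Cd34 and Kit were lower and not called. Other lists gave 1 of 5 tested mast cell, basophil and eosinophil genes higher (Siglecf, tested through CSA alone), 2 of 4 endothelial genes lower, 0 of 4 fibroblast genes called, 1 of 4 adipocyte genes lower and 1 of 2 tested B cell genes higher, both of which needed CSA to pass. Several of these counts turned on 1 library. Pecam1, an endothelial gene, lost its call without CFA mouse 71, CFA mouse 74, CSA mouse 01 or CSA mouse 02. The fibroblast gene Lum was called higher without CFA mouse 71 or CSA mouse 01. Of the genes called lower only then, the adipocyte genes were Cidec without CFA mouse 71 or CSA mouse 02 and Ucp1 without CFS mouse 70, and without CFA mouse 72 there were the platelet genes Gp9 and Gp1ba and the progenitor gene Cd34.

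Genes whose pattern was most like a member's were found by Pearson's r of log2(FPKM + 0.1) over the 12 mice, which mainly reflects the contrast of CSA with the rest. Those nearest S100a8 were Kng2 (r = 0.991), Ctsz (0.991), Mxd1 (0.989), Eef1b2 (0.989) and Gm5483 (0.989). Those nearest Ngp were Gm6377 (r = 0.985), Hrh2 (0.984), Ctla4 (0.981), Il18bp (0.981) and Fbn2 (0.978). The 2 sets of neighbours share no gene.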

How the data were processed

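RNA-Seq libraries of 12 abdominal aortas were grouped by the genotype and treatment in their labels, and each mouse was matched to 1 column of a single table (0 columns left unused). The authors deposited FPKM per gene and mouse, unpooled. The submitters' processing notes name HISAT2 2.0.5, StringTie 1.3.3b, featureCounts 1.5.0-p3 and mm10. The table holds 55092 features, and GENCODE M21 (GRCm38) gave 54409 a symbol and 54495 an exon length. With those lengths, 97.8% to 98.4% of values under 100 fragments came out whole within 0.02, which gave the fragments per library and the precision of low values. The median-of-ratios factor was the same in all libraries, so the deposited FPKM appear scaled between libraries already.

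Log2(FPKM + 0.1) was fitted with limma 3.58.1 in R 4.3.3 (lmFit, then eBayes allowing a mean-variance trend and outlying variances), giving each of the 4 groups of the 12 libraries its own coefficient, without covariates, on the 14676 features at 1 FPKM or more in at least 3 libraries. Benjamini-Hochberg adjustment ran over these features, separately per comparison. A call needed both a limma adjusted p under 0.05 and a change beyond 1.5 on the log2 scale. Single members were compared by two-sided exact permutation tests, and fragment rates by exact 95% intervals, which cover counting error only. The fit was also run on simulated data, and no result given here draws on that run. The rule for named genes took the 10 members, the 3 genes of each other list with the largest change in CSA against CFA (not all are printed, and several cell type lists are given by count alone), the 5 genes most like S100a8 and Ngp, and Ccn2; other genes (among them Prtn3, Ctsg, Ly6g, S100a6, Tlr4, Cebpe, Gfi1, Retnlb, Kit and the keratins) were chosen after their values were seen. The members and lists were chosen with earlier results of these data known. Alternatives were a pseudocount of 1, no filter, 2 rescalings, plain eBayes settings, a fit of only the 2 groups compared, no fold limit and leaving out each mouse. A limma-voom fit of recovered fragments, the filter applied again without a CSA mouse and fragment ratios without each mouse and list counts without CSA mouse 03 were added after the data were seen. Python 3.11.15 with scipy and matplotlib made tables and figures.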

Additional observations from a re-analysis of the deposited data

Results flagged for a closer look

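The genotype effect under Ang II (CSA minus CFA) exceeded that under saline (CSS minus CFS) in a limma interaction term for each of the 8 tested members. Of all tested genes, 7.89% were called higher in this term. The difference on the log2 scale was 5.81 for S100a8, 5.41 for S100a9, 4.79 for Retnlg and 7.21 for Stfa2l1 of the mature set. It was 7.59 for Ngp, 4.39 for Camp, 3.39 for Ltf and 4.29 for Elane of the immature set. Ngp was at 0 in each CFA and CSS mouse, and its value ran from 3.52 to 11.2 over the alternatives. Each of the 3 CSA mice lay above the 3 CFA mice for these genes, as for 23.4% of all tested genes, and the saline groups overlapped. Stfa2l1, Ngp, Camp, Ltf and Elane reached the 1 FPKM of the filter only in the 3 CSA libraries, so being high in CSA was a condition of testing them. Retnlg, at 1 FPKM or more in 2 other libraries, also needed a CSA library to pass. The adjusted p over 18 alternatives reached at most 0.0465 for Ltf and 0.0438 for Retnlg.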

How the results depend on the processing

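Counted over the settings that could move a fold change (a pseudocount of 1, equal totals, limma-voom and leaving out each mouse of the groups compared), 70 of 72 values of the 8 tested members kept their direction and call between CSA and CFA, as did 70 of 72 between CSA and CSS and 118 of 120 in the interaction. The median-of-ratios factor was 1.0135 in every library and tested nothing. The exceptions were Ltf and Elane with a pseudocount of 1, whose changes fell under the fold limit (1.39 and 1.37 against CFA, 1.42 and 1.43 against CSS, 1.37 and 1.49 in the interaction) with adjusted p of at most 9.21e-04. With the filter applied again without CSA mouse 01, 02 or 03, an alternative added after the data were seen, the count of called members was 3 in each of these comparisons, because 5 members then reached 1 FPKM in too few libraries to be tested. A pseudocount of 1 moved the mature minus immature difference to 2.83 against CFA, 4.06 against CSS and 2.76 in the interaction. The interaction difference was 1.12 as fitted, 0.44 without CFS mouse 69 and up to 1.69 (without CFS mouse 70) with another mouse left out.

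Between CFA and CFS, 1 member was called without CFA mouse 74 (0 to 1 over the fits that left out a mouse). The directions that turned belonged to changes that were not called. With 1 mouse left out, the change between CSS and CFS ranged from -0.46 to 0.48 for Retnlg, from -1.18 to 0.15 for S100a9, from -0.084 to 0.27 for Ltf and from -1.39 to 0.17 for Stfa2l1. Between CFA and CFS it ranged from -0.79 to 0.086 for Elane and from -1.37 to 0.13 for Stfa2l1. Retnlg between CSS and CFS was -0.029 with a pseudocount of 1 and -0.021 with limma-voom. Of 67 other named genes, 3 turned between CSA and CFA with 1 mouse left out, Cma1 (-0.10 to 1.25), Mcpt4 (-1.29 to 0.059) and Cd79a (-0.80 to 1.51, and -0.30 with limma-voom). The cause was not tested. No paired analysis was possible because the groups share no mouse numbers. Depth limits what can be said of the immature set outside CSA, where each group held at most 17 fragments of any of its genes.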
